A study of Mus musculus with 6 samples.

Results

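The hypoxia response and glycolysis genes were read as a group of 39 symbols, found by name in a table of 24848 genes, and all 39 were present. They fall into 6 regulators of the hypoxia-inducible factor (HIF), 11 HIF targets outside glycolysis, 4 genes of glucose and lactate transport and pyruvate entry, and 18 glycolytic enzymes, among which Pfkfb3 and Pfkfb4, which set the level of an activator of phosphofructokinase, were counted. RNA sequencing compared RAW 264.7 mouse macrophages labelled APOBEC1 KO (KO, 3 libraries) with RAW 264.7 cells labelled WT (WT, 3 libraries), each library from a plate of its own. Both groups were grown in high-glucose medium, no treatment or oxygen setting is named for either, and the labels do not say how the knockout was made or how many clones it holds. Apobec1 itself, given in scaled read counts (CPM), stood at 339, 340.1 and 361 CPM in KO, against 373, 431 and 396 CPM in WT (log2 fold change -0.20, limma adjusted p = 0.0663), so its message level does not check the genotype labels. A difference between the groups can therefore be one between cell lines as well as one of genotype, and these cannot be told apart. RAW 264.7 is a macrophage-like tumour line from a BALB/c mouse, and APOBEC1 is an enzyme that edits C to U in RNA. Each p-value measures the spread between plates.

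HIF is a transcription factor with an oxygen-regulated alpha subunit and a constant beta subunit. When oxygen is present, prolyl hydroxylases mark the alpha subunit, the von Hippel-Lindau protein binds the mark and the subunit is degraded, while an asparaginyl hydroxylase blocks its contact with coactivators. When oxygen is short, HIF raises genes of glucose uptake, glycolysis, mitophagy and vessel growth, and in macrophages it also serves the switch to glycolysis that comes with activation.

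CPM scales each library's read counts to the same total, and errors of levels are SDs among the libraries of one genotype. Log2 fold changes set KO against WT on log2(CPM + 0.5) and carry their SE. A gene was called at an adjusted p under 0.05 (limma, Benjamini-Hochberg over 10614 tested genes). Low genes look less changed on this scale than they are, whereas a fold in words is a ratio of mean CPM. The libraries held 50493447 to 70411383 reads in genes, so that a single read was worth 0.0142 to 0.0198 CPM. The background for the members' counts is that 30.4% of the tested genes passed (13.5% higher and 16.9% lower in KO), against 31.6% with edgeR and 35.4% with DESeq2. The median gene had a value of -0.02, and 46.4% of genes had groups that did not overlap. All 10 macrophage markers were present, with summed levels of 3970 to 4402 CPM in KO and 3667 to 3810 CPM in WT. Of these, 3 were called higher in KO (Lyz2, Spi1 and Mertk) and 2 lower (Adgre1 and Fcgr1), with log2 fold changes of -0.50 for Adgre1 to 0.80 for Lyz2, and their part in the results that follow was not tested. Spi1 (log2 fold change 0.39) and Mertk (0.33) lie on chromosome 2, whose 863 tested genes had a median of 0.34. The 17 markers of other cell types summed to 0.405 to 0.468 CPM in KO and 0.337 to 0.608 CPM in WT.

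Of the 39 members, 37 passed the minimum of 1 CPM in 3 libraries and 19 were called, 5 higher and 14 lower in KO. Adm and Eno1 did not pass. Egln3, P4ha2 and Ankrd37 passed through the WT libraries alone. For them the minimum itself favoured a lower level in KO, and their calls add nothing to a count. The members' median log2 fold change was -0.14, and without these 3 it was -0.10, with 5 of 34 called higher and 11 lower. The same removal over all tested genes left 10223, with 1372 called higher and 1570 lower. Together the members held 1.45% to 1.596% of the reads in KO and 1.54% to 1.76% in WT. In 26 of 37 tested members the groups did not overlap, against 46.4% of all tested genes. The 26 include Egln3, P4ha2 and Ankrd37. Neither this count nor the 46.4% was redone without genes that passed through a single group.

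**Figure D1:**
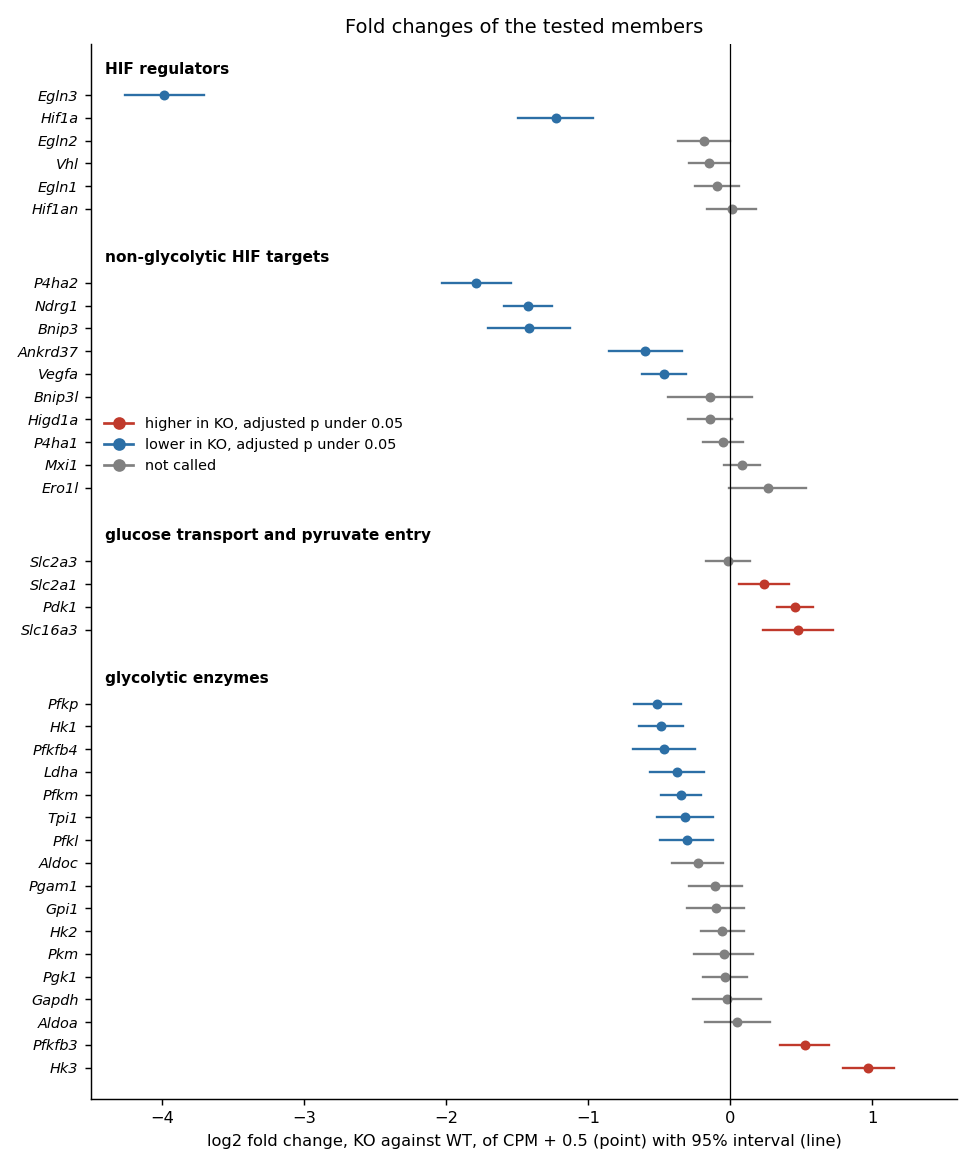
Log2 fold change of each tested member, KO against WT, on CPM + 0.5, with its 95% interval from limma, ordered within the 4 sets. Egln3 lies farthest to the left at -3.98 and Hk3 farthest to the right at 0.97, and most glycolytic enzymes lie between -0.51 and 0.05.

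Among the HIF regulators, the message of the factor itself and of one of its hydroxylases was lower in KO. Hif1a (ENSMUSG00000021109.13, mm10 chromosome 12, 73901375 to 73947530), which encodes the oxygen-regulated subunit, stood at 163, 147 and 167 CPM in KO, against 315, 430 and 385 CPM in WT. No KO library came near the lowest WT library. The level was 2.37-fold lower in KO, with a log2 fold change of -1.23 ± 0.11 (adjusted p = 0.000178, limma), and 1.75% of tested genes had a fold change as low or lower. In RNA from whole cultures, fewer cells that express a gene and less RNA per cell cannot be told apart.

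Egln3 (ENSMUSG00000035105.5, mm10 chromosome 12, 54178981 to 54203860) encodes PHD3, a prolyl hydroxylase that acts on HIF and is itself a HIF target. It had 26, 33 and 43 reads in KO, against 777, 1088 and 887 reads in WT, or 0.369, 0.552 and 0.645 CPM in KO against 15.4, 16.1 and 15.2 CPM in WT. The message was detected in each KO library at a level far under any WT library, at 0.522 ± 0.140 CPM in KO and 15.6 ± 0.505 CPM in WT, 29.8-fold lower. Its log2 fold change was -3.98 ± 0.12 (adjusted p = 5.22e-07, limma).

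The other prolyl hydroxylases were not called. Egln1, which encodes PHD2, the main HIF hydroxylase in most cells, had 30.4, 32.7 and 31.7 CPM in KO, against 35.1, 33.1 and 33.0 CPM in WT (log2 fold change -0.09, 95% interval -0.25 to 0.06). Egln2, which encodes PHD1, had 34.1, 34.7 and 32.4 CPM in KO, against 42.3, 36.9 and 36.2 CPM in WT (log2 fold change -0.18, 95% interval -0.37 to 0.00). For both genes each KO library lay below each WT library, by a margin that did not pass the test. Per kb of annotated exons, the 3 hydroxylase genes summed to 21.0 ± 0.593 CPM in KO and 29.0 ± 1.49 CPM in WT, and Egln3 made up 0.933% ± 0.254 of that sum in KO and 20.2% ± 1.25 in WT (n = 3 each, given as a description with no test).

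Vhl, the substrate receptor of the ubiquitin ligase that removes hydroxylated HIF, had 37.0, 36.2 and 36.2 CPM in KO, against 39.7, 41.1 and 40.9 CPM in WT. The groups did not overlap, but the difference missed the threshold (log2 fold change -0.15 ± 0.06, adjusted p = 0.0992, limma), and the median of all tested genes on its chromosome, chromosome 6, was -0.16. Hif1an, the asparaginyl hydroxylase, had 42.7, 47.9 and 48.1 CPM in KO, against 45.9, 47.6 and 44.2 CPM in WT, and the groups overlapped (log2 fold change 0.01, 95% interval -0.16 to 0.18). Of the 6 regulators, 2 were called lower and 0 higher, against 16.9% and 13.5% of all tested genes. Of the 2, Egln3 was testable through the WT libraries alone, so that Hif1a is the single call among the other 5. At an unadjusted p under 0.05, 0 were higher in limma, and edgeR and DESeq2 called 0 higher at an adjusted p under 0.05.

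**Figure D2:**
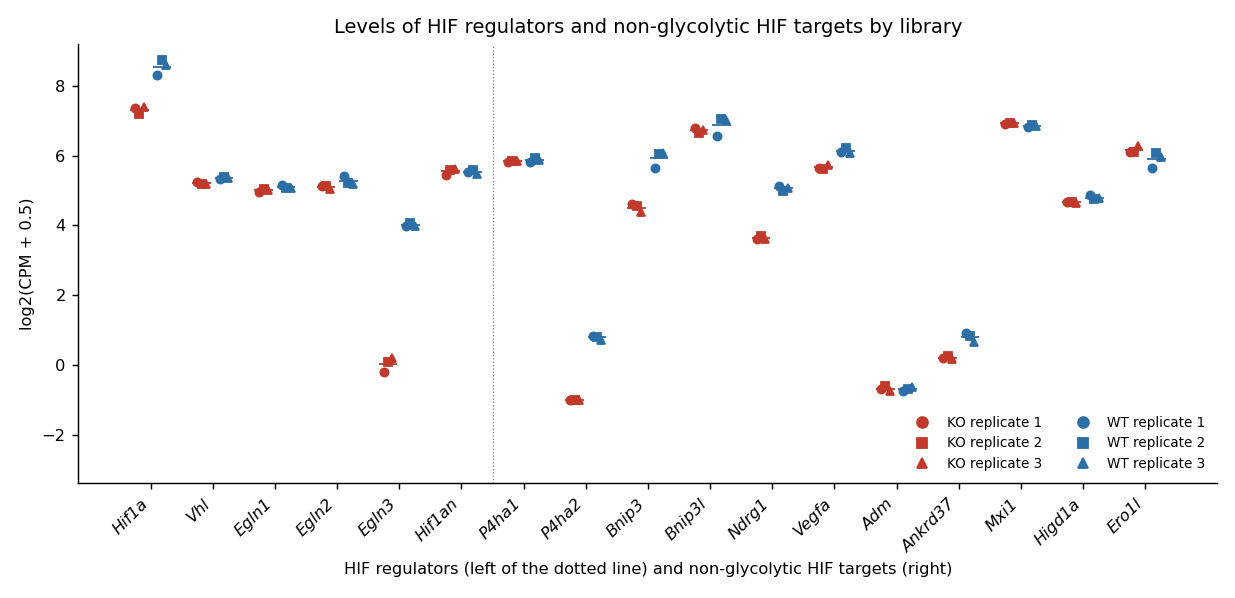
Levels of the HIF regulators and of the HIF targets outside glycolysis in each library, as log2(CPM + 0.5), with KO on the left and WT on the right of each gene and a line at the group mean. Hif1a, Egln3, P4ha2, Bnip3, Ndrg1, Vegfa and Ankrd37 are called lower in KO, with no overlap. The symbols of the remaining genes lie close together. Among these, Vhl, Egln1, Egln2 and Higd1a are lower and Mxi1 and Ero1l higher in KO without overlap, and were not called. P4ha2 has 0 reads in the KO libraries, which this scale puts at -1.

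Of the 11 HIF targets outside glycolysis, 10 were tested, 5 were called lower in KO and 0 higher, with a median log2 fold change of -0.31. Over all tested genes 16.9% were called lower and 13.5% higher. Leaving out P4ha2 and Ankrd37, which were testable through the WT libraries alone, 3 of 8 were called lower, namely Bnip3, Ndrg1 and Vegfa, and the median was -0.14. At an unadjusted p under 0.05, 0 were higher in limma, edgeR called 0 higher and DESeq2 called 1 higher, Ero1l. The set leaves out the genes of glucose and lactate transport and pyruvate entry, among them the HIF target Slc16a3. Of those 4 genes 3 were called higher and 0 lower, so the 0 higher here holds only for the set as drawn.

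Bnip3 (ENSMUSG00000078566.8, mm10 chromosome 7, 138890836 to 138909519), a receptor that tags mitochondria for autophagy, had 23.8, 22.9 and 20.3 CPM in KO, against 49.7, 65.4 and 67.2 CPM in WT. WT replicate 1 was the lowest WT library and still lay far above each KO library. The log2 fold change was -1.41 ± 0.13 (adjusted p = 0.000138, limma). An antisense gene that has no entry in the table, Gm45507, overlaps 22.3% of its exon bases, and the authors' use of strand in counting was not given in the sources used here.

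Its relative Bnip3l, a mitophagy receptor too, had 109, 100.5 and 107 CPM in KO, against 93.2, 131 and 129 CPM in WT. The groups overlapped through WT replicate 1 alone, and the fold change was not called with all libraries (log2 fold change -0.14 ± 0.13, adjusted p = 0.441, limma). Without WT replicate 1 it was called lower (log2 fold change -0.30, adjusted p = 0.00641). Per kb, Bnip3 made up 26.5% ± 1.83 of the pair in KO and 46.8% ± 0.832 in WT (n = 3 each, exact two-sided permutation p = 0.1, the smallest that 3 against 3 libraries allow).

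Ndrg1 (ENSMUSG00000005125.13, mm10 chromosome 15, 66929318 to 66969640), a stress-responsive gene induced by low oxygen, had 11.8, 12.3 and 11.8 CPM in KO, against 34.5, 31.2 and 33.0 CPM in WT. Libraries of a group lay close together, and the groups lay far apart (2.75-fold lower, log2 fold change -1.42 ± 0.07, adjusted p = 7.87e-06, limma). Vegfa, the vascular endothelial growth factor, averaged 50.2 ± 1.89 CPM in KO and 69.6 ± 3.44 CPM in WT (n = 3 each), a smaller fall with a log2 fold change of -0.47 ± 0.07 (adjusted p = 0.00158, limma).

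P4ha2 (ENSMUSG00000018906.14, mm10 chromosome 11, 54100095 to 54131665), a catalytic subunit of the hydroxylase that matures collagen, was listed at 0 reads in each KO library, against 65, 84 and 67 reads in WT (1.29, 1.25 and 1.15 CPM). Against a floor of 3 reads per library it was at least 24.4-fold lower in KO. The floor covers counting error only, and genes that most cells use, such as Bsg and G6pdx, were also listed at 0 in all 6 libraries. P4ha1, which encodes the sister subunit, averaged 56.4 ± 0.530 CPM in KO and 58.6 ± 2.24 CPM in WT (n = 3 each), with overlapping groups.

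Ankrd37, an ankyrin repeat gene known as a HIF target, had 45, 41 and 42 reads in KO, against 70, 86 and 63 reads in WT. The log2 fold change was -0.60 ± 0.11 (adjusted p = 0.00543, limma), a call lost under quantile normalization (log2 fold change -0.18, adjusted p = 0.303). Its exons share 22.7% of their bases with Lrp2bp on the other strand, which averaged 0.265 CPM.

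The remaining targets moved little. Ero1l, an oxidase of the endoplasmic reticulum, had 68.4, 68.1 and 76.3 CPM in KO, against 49.0, 67.1 and 61.9 CPM in WT, and ran opposite to the genes above without a call (log2 fold change 0.27 ± 0.12, adjusted p = 0.126, limma). Higd1a, a mitochondrial membrane protein, and Mxi1, an antagonist of MYC, had log2 fold changes of -0.14 and 0.08 and were not called, although their groups did not overlap. An antisense gene with no entry in the table overlaps 22.5% of the exon bases of Higd1a. Adm, the vasodilator adrenomedullin, was near its detection limit, with 6 to 9 reads in KO libraries and 5 to 8 in WT libraries.

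Promoters are shown for the members called with at least a 2-fold change and for the most abundant glycolytic enzyme, Pkm, each holding ACGTG. This is a core of the HIF binding sequence, and the letters show where it lies. Core here means ACGTG on either strand, and no other form was searched. Each line gives the 250 bases before a RefSeq transcription start of GRCm38.p6 (mm10), 5′ to 3′ on the gene's strand, with ACGTG, or CACGT where the core reads on the other strand, in capitals. Where both overlap they form CACGTG, which is also the recognition sequence of MYC and USF factors. Ndrg1 had no entry in the promoter table.
Hif1a, chr12:73907617-73907866, plus strand: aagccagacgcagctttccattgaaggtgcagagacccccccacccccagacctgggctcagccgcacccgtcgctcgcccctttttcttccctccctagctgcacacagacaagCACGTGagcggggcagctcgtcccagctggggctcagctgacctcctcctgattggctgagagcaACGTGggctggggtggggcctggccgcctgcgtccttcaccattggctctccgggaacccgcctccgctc
Egln3, chr12:54203875-54204124, minus strand: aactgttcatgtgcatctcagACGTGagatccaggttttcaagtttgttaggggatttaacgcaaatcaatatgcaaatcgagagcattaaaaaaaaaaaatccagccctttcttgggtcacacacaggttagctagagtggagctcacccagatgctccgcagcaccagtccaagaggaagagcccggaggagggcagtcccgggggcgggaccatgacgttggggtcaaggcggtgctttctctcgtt
P4ha2, chr11:54100674-54100923, plus strand: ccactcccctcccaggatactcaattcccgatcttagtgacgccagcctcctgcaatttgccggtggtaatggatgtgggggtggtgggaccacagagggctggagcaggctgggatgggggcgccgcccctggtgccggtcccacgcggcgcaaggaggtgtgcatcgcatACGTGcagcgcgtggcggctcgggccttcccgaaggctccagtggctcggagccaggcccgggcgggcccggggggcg
Bnip3, chr7:138909507-138909756, minus strand: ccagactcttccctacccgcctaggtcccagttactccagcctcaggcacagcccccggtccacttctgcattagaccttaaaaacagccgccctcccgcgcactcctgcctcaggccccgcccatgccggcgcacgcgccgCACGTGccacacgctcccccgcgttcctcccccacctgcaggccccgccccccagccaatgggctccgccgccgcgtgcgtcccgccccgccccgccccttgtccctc
Pkm, chr9:59656977-59657226, plus strand: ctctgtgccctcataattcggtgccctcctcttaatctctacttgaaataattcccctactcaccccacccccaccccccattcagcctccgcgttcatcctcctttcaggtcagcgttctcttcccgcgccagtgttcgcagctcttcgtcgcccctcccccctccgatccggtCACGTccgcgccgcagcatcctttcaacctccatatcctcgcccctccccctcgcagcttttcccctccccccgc

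The core was common among the members whether or not they changed. Of the 36 members with an entry, 22 (61.1%) held it in at least one window of this length, against 18.5% of all 27025 genes in the table. These shares are not like for like. The table is not limited to tested genes, and the members were chosen as genes of HIF and glycolysis. The members also had 53 windows for 36 genes, against 32851 for 27025. It was found for 8 of 13 members called lower (61.5%), for 4 of 5 called higher (80.0%) and for 10 of 16 tested and not called (62.5%). The 8 of 13 include Egln3, P4ha2 and Ankrd37, which were testable through the WT libraries alone. The share was not redone without them. The Hif1a window held the CACGTG form and a core apart from it, the Bnip3 window held the CACGTG form, and those of Egln3, P4ha2 and Pkm a single core outside it. Pkm has 2 start sites in the table, and the window of the other one, which is not shown, holds no core. A match of 5 letters is a description and shows no binding.

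Among the members that carry glucose in and lactate out, the lactate exporter gave the clearest rise in KO. Slc16a3, which encodes the lactate exporter MCT4 and is a known HIF target, had 97.1, 109 and 90.0 CPM in KO, against 81.0, 63.8 and 67.8 CPM in WT. Each KO library lay above each WT library (log2 fold change 0.48 ± 0.11, adjusted p = 0.0123, limma). Slc2a1, the glucose transporter GLUT1, had 128, 133 and 121 CPM in KO, against 118, 100.1 and 106 CPM in WT. Its call was at the threshold (log2 fold change 0.24 ± 0.08, adjusted p = 0.0498, limma) and was lost under 13 of 17 other settings, with adjusted p from 0.00884 to 0.177 over these 17. Slc2a3, which encodes GLUT3, averaged 42.5 ± 1.77 CPM in KO and 42.9 ± 1.65 CPM in WT (n = 3 each), with overlapping groups. Outside the members, the lactate transporter gene Slc16a1 (MCT1) averaged 512 ± 12.5 CPM in KO and 409 ± 29.2 CPM in WT. It was called higher too (log2 fold change 0.32 ± 0.07, adjusted p = 0.0105, limma).

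Pyruvate entry here means the step of pyruvate dehydrogenase, not passage into the mitochondrion. Pdk1, a kinase that shuts pyruvate dehydrogenase, had 150, 153 and 149 CPM in KO, against 106, 112 and 110.2 CPM in WT. The groups stood well apart (log2 fold change 0.46 ± 0.06, adjusted p = 0.000714, limma). Pdk1 lies on chromosome 2, whose 863 tested genes had a median of 0.34. With each library's chromosome median taken off, the value for Pdk1 was 0.14 and was not called (adjusted p = 0.124). Of the 4 genes of this set 3 were called higher and 0 lower, against 13.5% and 16.9% of all tested genes. At an unadjusted p under 0.05 in limma 0 were lower, and edgeR and DESeq2 called 0 lower. After the chromosome medians were taken off 1 was called higher, Slc16a3.

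Of the 18 glycolytic enzymes, 17 were tested, 7 were called lower in KO and 2 higher, with a median log2 fold change of -0.10 and a range of -0.51 to 0.97. None of the 17 reached a 2-fold change with all libraries, and Hk3 came nearest, with log2 fold changes of 0.90 to 1.05 over the other settings. Among the regulators and other HIF targets, Hif1a, Bnip3 and Ndrg1 fell at least 2-fold, as did Egln3 and P4ha2, which were testable through WT alone. Of the 10614 tested genes, 16.9% were called lower and 13.5% higher, with 2.56% at least 2-fold lower and 1.13% at least 2-fold higher.

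**Figure D3:**
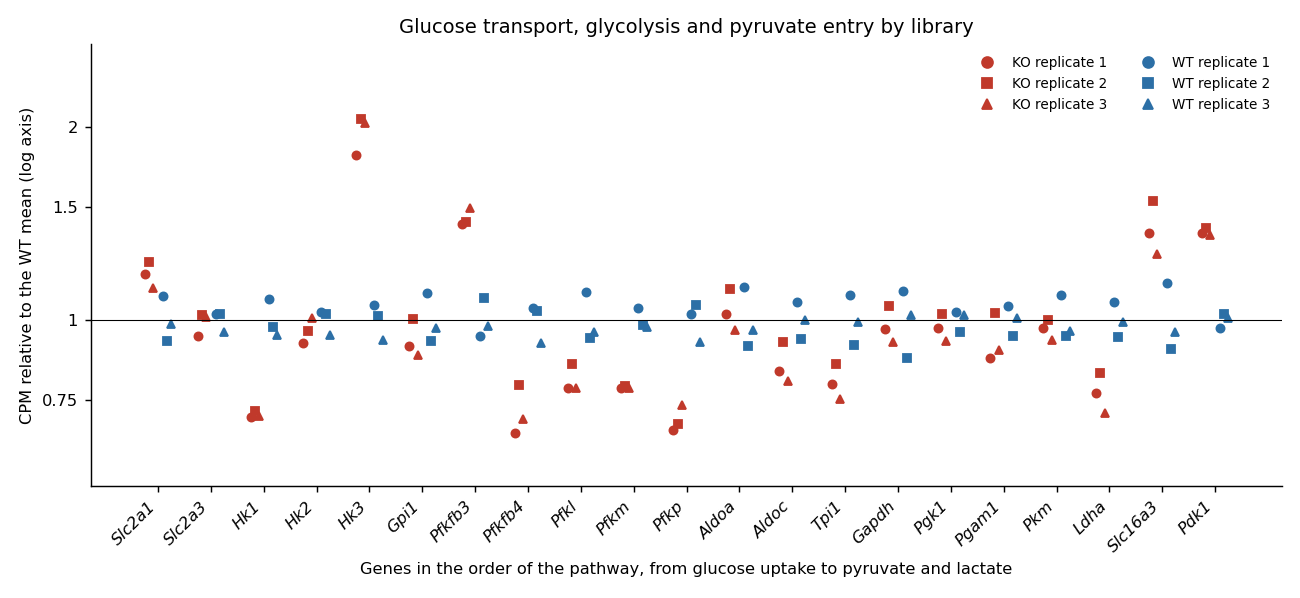
Level of each gene in each library relative to the WT mean, on a log axis, from glucose uptake on the left to lactate export and pyruvate entry on the right, with KO left of WT within a gene. Hk3, Pfkfb3, Slc2a1, Slc16a3 and Pdk1 lie above the WT libraries in KO, and Hk1, Pfkfb4, the phosphofructokinases, Aldoc, Tpi1 and Ldha lie below them. Eno1 is not drawn because it had 1 to 5 reads.

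At the entry step one hexokinase rose and another fell. Hk3, a hexokinase typical of myeloid cells, had 152, 173 and 171 CPM in KO, against 88.7, 85.2 and 78.0 CPM in WT, and its lowest KO library lay far above its highest WT library (1.97-fold higher, log2 fold change 0.97 ± 0.08, adjusted p = 8.13e-05, limma). Hk1, the widely expressed hexokinase, had 175.5, 179.7 and 177 CPM in KO, against 269, 243 and 236 CPM in WT (log2 fold change -0.49 ± 0.07, adjusted p = 0.00128, limma). Hk2, the inducible form and a HIF target, had 188, 197 and 206 CPM in KO, against 211, 209 and 194 CPM in WT, with overlapping groups (log2 fold change -0.06, 95% interval -0.20 to 0.09).

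Per kb of exon, Hk3 was the most abundant of the 3 hexokinase messages in KO at 45.5% ± 1.18 of their sum, against 26.4% ± 0.331 in WT. This ranking rests on the merged length of all annotated exons, 3682 bases for Hk3, 8532 for Hk1 and 5969 for Hk2. In CPM without a length, Hk3 averaged 165 in KO, below Hk1 at 177 and Hk2 at 197. Hk1 made up 21.1% ± 0.850 in KO and 33.8% ± 0.895 in WT. The sum itself stood at 98.6 ± 4.56 CPM per kb in KO and 86.3 ± 4.81 in WT (n = 3 each). The share of each of the 3 genes did not overlap between groups (exact two-sided permutation p = 0.1, the smallest possible).

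**Figure D4:**
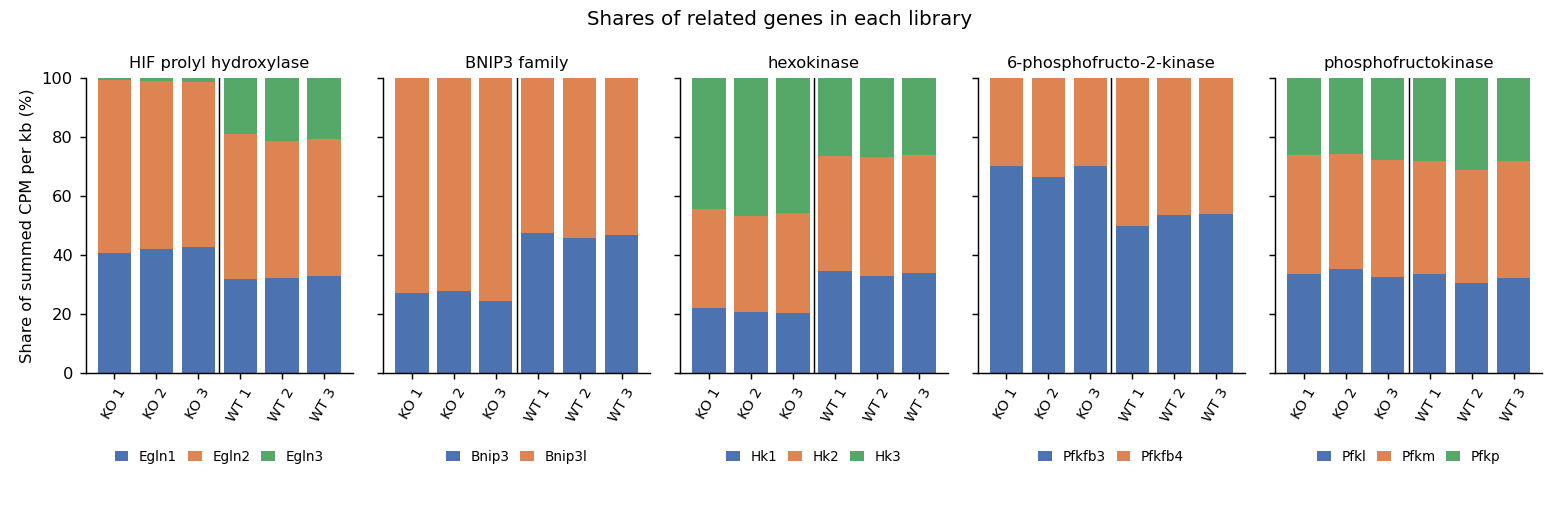
Share of each gene in the summed CPM per kb of the members of its family, for 5 families, with the 3 KO libraries left of the 3 WT libraries. Egln3, Bnip3 and Hk1 take smaller shares in KO, Hk3 and Pfkfb3 take larger ones, and the phosphofructokinase shares lie close together, with a KO minus WT difference of -2.54 percentage points for Pfkp.

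At the step that commits glucose to glycolysis, all 3 phosphofructokinase genes were lower in KO. Pfkp, the platelet form, had 102, 104 and 112 CPM in KO, against 155, 160.02 and 140.03 CPM in WT (log2 fold change -0.51 ± 0.07, adjusted p = 0.00149, limma). Pfkm, the muscle form and the most abundant of the 3 per kb, had 39.6, 39.9 and 39.5 CPM in KO, against 52.8, 49.6 and 49.4 CPM in WT (log2 fold change -0.35 ± 0.06, adjusted p = 0.00457, limma). Pfkl, the liver form, averaged 67.4 ± 3.42 CPM in KO and 83.7 ± 7.76 CPM in WT (log2 fold change -0.31 ± 0.08, adjusted p = 0.0249, limma), a call lost under 4 of 17 other settings, among them the runs without KO replicate 1 (adjusted p = 0.097) and without KO replicate 3 (adjusted p = 0.0823). The 3 genes summed to 29.9 ± 0.561 CPM per kb in KO and 39.01 ± 2.03 in WT (n = 3 each). Pfkp shares 5.58% of its exon bases with Pitrm1 on the other strand. Its merged exons span 13401 bases, against 3340 for Pfkm, and the ranking per kb rests on these lengths.

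Of the bifunctional enzymes that make and remove fructose 2,6-bisphosphate, the activator of phosphofructokinase, the members Pfkfb3 and Pfkfb4 moved in opposite directions. Pfkfb3, whose kinase activity prevails, had 44.2, 44.5 and 46.8 CPM in KO, against 29.5, 33.8 and 30.6 CPM in WT, without overlap (log2 fold change 0.52 ± 0.07, adjusted p = 0.00158, limma). It lies on chromosome 2, and with the chromosome medians taken off its log2 fold change was 0.21 (adjusted p = 0.0433). Pfkfb4 averaged 13.1 ± 1.19 CPM in KO and 18.2 ± 1.25 CPM in WT (n = 3 each, log2 fold change -0.46 ± 0.09, adjusted p = 0.00785, limma). Per kb, Pfkfb3 made up 69.0% ± 2.12 of the pair in KO and 52.6% ± 2.25 in WT (exact two-sided permutation p = 0.1, the smallest possible). The pair is not the whole family. Pfkfb2, outside the members, stood at 5.63 CPM per kb in KO and 6.77 in WT, against 5.97 and 4.14 for Pfkfb3. Pfkfb1 stood at 0.901 CPM per kb in KO and 0.829 in WT. Neither Pfkfb2 nor Pfkfb1 was called.

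Further down the pathway the abundant enzymes were mostly not called. Gpi1, the isomerase that makes fructose 6-phosphate, had 708, 781 and 686 CPM in KO, against 859, 722 and 757 CPM in WT. Aldoa, the main aldolase, had 1485, 1622 and 1400.5 CPM in KO, against 1637, 1324 and 1400.3 CPM in WT. For both genes the libraries of the groups were interleaved, and their log2 fold changes were -0.10 (95% interval -0.30 to 0.10) and 0.05 (95% interval -0.18 to 0.28).

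Gapdh, which oxidises glyceraldehyde 3-phosphate, had 2469.8, 2691 and 2362 CPM in KO, against 2838, 2229 and 2599.8 CPM in WT. Pgk1, the first step that yields ATP, had 758, 798 and 723 CPM in KO, against 802, 746 and 793 CPM in WT. These groups overlapped too, with log2 fold changes of -0.02 (95% interval -0.26 to 0.22) and -0.04 (95% interval -0.19 to 0.12). Pgam1, a mutase, had 202, 237 and 208 CPM in KO, against 243, 218 and 233 CPM in WT, and was not called (log2 fold change -0.10, 95% interval -0.29 to 0.08). Pkm, which encodes the last enzyme of glycolysis and was the most abundant member, had 5495, 5659 and 5273 CPM in KO, against 6199.6, 5348 and 5442 CPM in WT, and its log2 fold change was -0.05 (95% interval -0.25 to 0.16).

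Among these abundant enzymes, Tpi1 and Ldha were called lower in KO. Ldha, which turns pyruvate into lactate, had 1205, 1295 and 1119 CPM in KO, against 1671, 1475 and 1554 CPM in WT, with no overlap (log2 fold change -0.38 ± 0.08, adjusted p = 0.0108, limma). Tpi1, the triosephosphate isomerase, had 669, 719.7 and 634 CPM in KO, against 923, 770.4 and 835 CPM in WT (log2 fold change -0.32 ± 0.09, adjusted p = 0.0258, limma). It lies on chromosome 6, whose 520 tested genes had a median of -0.16. With the chromosome medians taken off its value was -0.16 and was not called (adjusted p = 0.285), and the call was lost under 8 of 17 other settings, the runs without KO replicate 1, KO replicate 3 or WT replicate 3 among them (adjusted p = 0.0913, 0.0837 and 0.074). Aldoc, the minor aldolase, fell just short of a call (log2 fold change -0.23 ± 0.08, adjusted p = 0.0592, limma), with no overlap.

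Eno1, the main enolase, had 2, 4 and 2 reads in KO libraries and 3, 5 and 1 reads in WT libraries, far below its neighbours in the pathway. Its near-identical copy Eno1b was listed at 0 in all 6 libraries, and the handling of reads that match several places was not given in the sources used here, so these counts cannot be read as a level. Several abundant enzymes, Gapdh, Pgk1, Pkm, Ldha and Aldoa among them, also have processed pseudogenes with which they can share reads.

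Libraries of the same genotype differed along these enzymes. Among the 3 KO libraries, replicate 2 had the highest CPM for 14 of 17 tested glycolytic enzymes, while it was highest for 33.7% of all tested genes. Among the 3 WT libraries, replicate 1 was highest for 15 of 17, while it was highest for 38.3% of all tested genes. The median deviation of the enzymes from their group mean was 0.08 in KO replicate 2 and 0.10 in WT replicate 1 on the log2 scale. Leaving out 1 library at a time gave 5 to 8 enzymes called lower, with 5 without KO replicate 1 and 5 without KO replicate 3, 7 without KO replicate 2 and 7 without WT replicate 1, 8 without WT replicate 2 and 6 without WT replicate 3. In each of these runs 2 were called higher.

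Other genes of these pathways, from lists outside the 39 members, were counted in the same fit. Like the members, these lists were chosen with earlier results of these data known, so their counts are descriptions. Of 16 further symbols listed for proteins of the HIF pathway, 14 were in the table and 11 were tested. The limma fit called 0 in either direction, against 30.4% of all tested genes. At an unadjusted p under 0.05 in limma, 1 was lower and 0 higher, and edgeR and DESeq2 called 0. The tested genes include Arnt, the beta subunit, with 88.2 ± 3.12 CPM in KO and 82.4 ± 4.17 CPM in WT (n = 3 each). Epas1, which encodes the sister alpha subunit HIF2A, was near its detection limit at 0.0616 CPM in KO and 0.0345 CPM in WT.

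Of 32 further HIF targets, 24 were tested, 12 were called lower and 2 higher (Ddit4 and Gys1), with a median log2 fold change of -0.30. Over all tested genes 16.9% were called lower and 13.5% higher in limma. Because this list was chosen with earlier results known, its count is no independent test of the members' result. edgeR called 12 lower and 3 higher, and DESeq2 12 lower and 5 higher. Ak4, an adenylate kinase of mitochondria, had 3.10, 3.497 and 3.36 CPM in KO, against 23.3, 23.2 and 22.4 CPM in WT (6.92-fold lower). Plod2, a lysyl hydroxylase for collagen, had 14.5, 13.7 and 15.4 CPM in KO, against 45.9, 66.1 and 57.0 CPM in WT (3.87-fold lower). The circadian and hypoxia factor Bhlhe40 averaged 56.2 ± 1.66 CPM in KO and 94.5 ± 4.09 CPM in WT. None of these groups overlapped, and the adjusted p-values were 5.30e-07, 3.36e-05 and 0.000110 (limma).

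**Figure D5:**
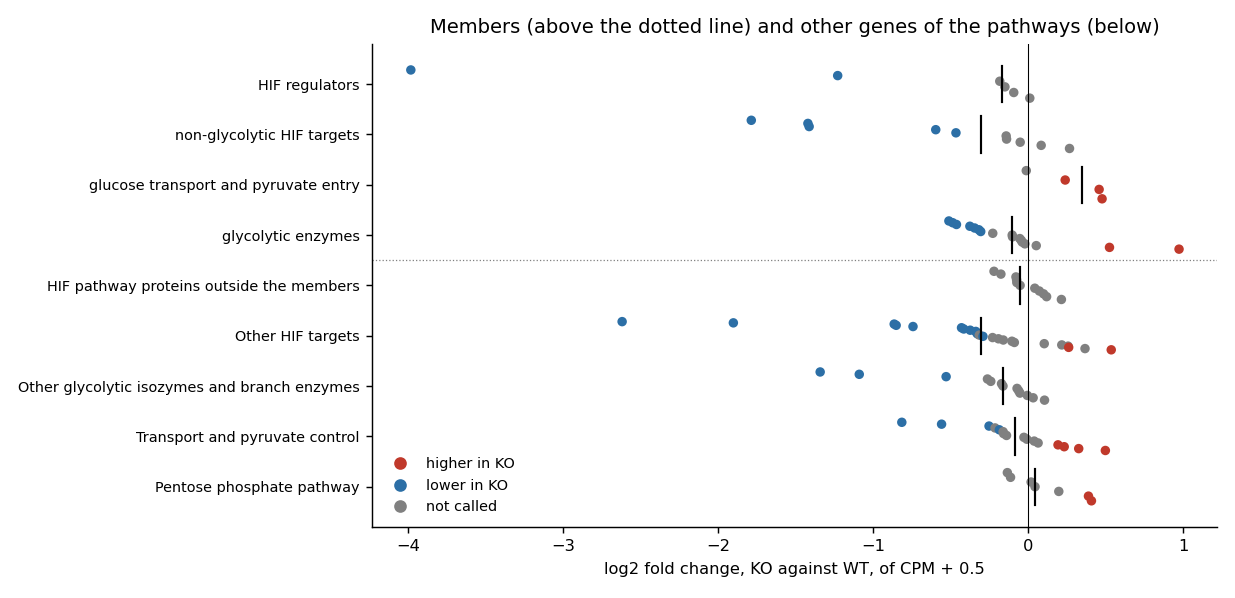
Log2 fold changes, KO against WT on CPM + 0.5, of the tested genes of each set and list, with a vertical bar at the median. The medians are -0.31 for the HIF targets among the members (-0.14 without P4ha2 and Ankrd37), -0.30 for the further HIF targets, 0.35 for glucose transport and pyruvate entry, and -0.10 for the glycolytic enzymes.

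Of 13 other tested isozymes and branch enzymes of glycolysis, 3 were called lower and 0 higher, with 0 higher at an unadjusted p under 0.05 in limma and 0 in edgeR and DESeq2. These were Eno2, the neuronal enolase and a HIF target, at 12.6 ± 1.68 CPM in KO and 33.0 ± 7.33 CPM in WT, Bpgm, which makes 2,3-bisphosphoglycerate, at 20.8 ± 0.488 CPM in KO and 30.3 ± 1.52 CPM in WT, and Gapdhs, known from sperm and testable through the WT libraries alone, at 1.12 ± 0.155 CPM in KO and 3.02 ± 0.945 CPM in WT. Of 16 tested genes of transport and pyruvate control, 4 were called higher and 4 lower, against 13.5% and 16.9% of all tested genes. The smallest adjusted p was that of Pdhx, a part of the pyruvate dehydrogenase complex on chromosome 2 (72.02 ± 2.44 CPM in KO and 50.9 ± 1.37 CPM in WT, log2 fold change 0.50), and with the chromosome medians taken off its value was 0.18 and was not called (limma adjusted p = 0.0762). In the same list Slc16a7, the monocarboxylate transporter MCT2, fell to 18.6 ± 0.106 CPM in KO, against 33.6 ± 6.20 CPM in WT, and Pdk2, a sister kinase of Pdk1, fell to 6.61 ± 0.133 CPM in KO, against 10.05 ± 1.39 CPM in WT. The pentose phosphate pathway had 7 tested genes, of which Pgd and Taldo1 rose and 0 fell, with 0 lower at an unadjusted p under 0.05 in limma and 0 in edgeR and DESeq2. Pgd, the dehydrogenase that yields NADPH, averaged 411 ± 25.7 CPM in KO and 310.3 ± 21.6 CPM in WT, and Taldo1, the transaldolase, 230 ± 15.3 CPM in KO and 176 ± 16.0 CPM in WT (n = 3 each).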

How the data were processed

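Poly(A) RNA of 3 KO and 3 WT plates was sequenced as paired-end Illumina reads, per the labels' protocols. STAR 2.6.0a, SAMtools, Picard, FastQC and Trim Galore, with the build mm10, are credited per the submitters' processing notes, and the column names say that duplicates were removed, per the file headers. Which counter, annotation and strand setting were used was not given in the sources used here. Deposited values are CPM, each read count divided by its library's total over genes, by the authors. All values were whole multiples of a single read (tolerance 0.01 of a read), so reads were recovered in 100% of values.

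A gene was tested if 3 or more of the 6 libraries had 1 CPM or more. The test was limma 3.58.1 (R 4.3.3) with a trended eBayes and no covariates on log2(CPM + 0.5), with Benjamini-Hochberg adjustment over all tested genes. Permutation tests used scipy 1.17.1. The exon length of a gene is that of all its annotated exons merged, not of the transcript in use. Positions, exon lengths and overlaps come from GENCODE M21 on mm10, where 24305 symbols matched directly and 136 by an older name, and promoters from RefSeq on GRCm38.p6. The fit was tested on simulated counts. Alternatives were other pseudocounts, minimums and scalings, a replicate block, chromosome medians taken off, edgeR 4.0.16 (3359 genes called) and DESeq2 1.42.0 run on whole reads, and leaving out each library with the tested genes kept. The members and lists were chosen with earlier results of these data known.

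Values in each library are given for the regulators, for other called members whose log2 fold change was 0.5 or more in size, and for the most abundant enzyme of each step. From each further list the called genes with the 3 smallest adjusted p are named. Arnt, Epas1, Eno1b, Bsg, G6pdx, Pfkfb1, Pfkfb2, Slc16a1 and the remaining members given by library were named after their values were seen. The share of reads from the ribosomal precursor Rn45s was 0.542% to 1.40% in KO and 0.381% to 2.75% in WT.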

Additional observations from a re-analysis of the deposited data

How the results depend on the processing

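Of the 19 called members, 14 kept their call and direction under the alternatives in which they were tested, and across 321 pairs of a called member and a setting 27 calls were lost and 0 turned round. The losses fell on Slc2a1, Tpi1, Pfkl, Pdk1 and Ankrd37. The 19 members and 321 pairs include Egln3, P4ha2 and Ankrd37, which were testable through the WT libraries alone. Egln3 and P4ha2 are among the 14, and their kept calls add nothing to that count. Of the 18 tested members without a call, 15 gained none, and Bnip3l, Ero1l and Aldoc gained one under at least one setting.

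Over all genes 3230 were called, and 1973 without KO replicate 1, with 1973 to 3761 over the runs that left out a library. Same-numbered libraries did not deviate together (correlations of -0.25, -0.64 and -0.17), so the numbers were not taken as pairs. A replicate block called 2009 genes, and its counts for the members were 2 regulators lower, 5 HIF targets outside glycolysis lower and 5 glycolytic enzymes lower.

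HIF targets outside glycolysis called higher numbered 1 with DESeq2 and 1 without WT replicate 2, in place of 0, and 0 to 1 over the runs that left out a library. Those called lower numbered 3 at a minimum of 5 CPM, which removed P4ha2 and Ankrd37, in place of 5. In a count chosen after seeing the data, which left out genes that passed the minimum through 1 group alone, they also numbered 3, and regulators called lower numbered 1 in place of 2. With chromosome medians taken off, 1 gene of glucose transport and pyruvate entry was called higher in place of 3. That setting also turned the sign of uncalled values, to 0.01 for Vhl (0.0074), 0.0093 for P4ha1, 0.15 for Slc2a3 (0.145), 0.10 for Hk2 (0.103), 0.14 for Gapdh (0.136) and 0.0029 for Pkm. Other uncalled members near 0 also changed sign. Hif1an was -0.0003 under quantile normalization, and -0.0198 to 0.0642 over the runs that left out a library. Slc2a3 was 0.0127 with TMM, 0.0128 with edgeR and 0.0141 with DESeq2, and -0.0456 to 0.021 over those runs. Aldoa was -0.0055 without KO replicate 2 and -0.0136 without WT replicate 2. Gapdh was 0.004 with TMM and -0.1175 to 0.0566 over those runs. Pkm was 0.0 under quantile normalization and -0.0856 to 0.021 over those runs. The cause was not tested.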
